A study of Mus musculus with 15 samples.

Results

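The Hox genes are the 39 protein-coding genes of the mouse HoxA, HoxB, HoxC and HoxD clusters, chosen here by symbol alone from the 54838 genes of the deposited tables, with no expression value in the rule. In the GENCODE annotation of GRCm38 the 11 HoxA genes span 105.3 kb (chr6:52155590-52260880), the 10 HoxB genes 173.9 kb (chr11:96194316-96368256), the 9 HoxC genes 115.8 kb (chr15:102921103-103036852) and the 9 HoxD genes 96.8 kb (chr2:74668310-74765142). Expression was measured by RNA sequencing of bulk RNA in 15 libraries, 3 in each of 5 groups. The 4T1 in vitro group is the mouse mammary carcinoma line 4T1 grown in a dish, and the 4T1 in vivo group is the same line recovered from the lungs of BALB/c mice on day 7 after injection into the tail vein. The other 9 libraries are lung epithelial cells, titled with the surface protein EpCAM and called AT2 (alveolar type 2) in the names of the deposited tables, from lungs that carried labelling 4T1 cells (lungs taken on day 7 after injection): distal epithelium and niche epithelium, both with control treatment, and niche epithelium labelled shSox9. Each of these replicates pooled 5 lungs. 4T1 is 1 established line, no label says that its replicates came from separate cultures or mice, and which cells carried the hairpin against Sox9 is not given, so p-values measure the spread between these samples, which may in part be technical.

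Hox proteins are transcription factors that bind DNA through a shared homeodomain. Along each cluster, gene order follows the order of expression along the body axis, so low-numbered genes mark anterior and high-numbered genes posterior positions, and adult cells keep much of the pattern of the place they came from. Genes that hold the same position in different clusters are paralogs. In the lung, Hoxa5 is required for normal development and is best known from the mesenchyme, and genes of the 3' and middle parts of HoxA and HoxB are the ones usually found in that organ.

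Library totals ran from 15907316 to 30421705 expected counts, so that 3 counts correspond to between 0.0986 and 0.189 CPM (counts scaled to library size). Unless stated otherwise, levels below are CPM after TMM scaling over all 15 libraries, whereas comparisons between genes use TPM, which accounts for length. Sox9, the target named in the label, was not lower in the niche libraries labelled shSox9 (84.4, 60.1 and 36.9 CPM) than in niche epithelium (61.6, 57.1 and 32.8 CPM), so the hairpin label could not be checked from its target. It stood at 180 to 216 CPM in 4T1 in vitro, 262 to 360 CPM in 4T1 in vivo and 5.63 to 6.83 CPM in distal epithelium. The part of 4T1 RNA in the niche Sox9 values was not tested. All 7 markers of alveolar type 2 cells, the surfactant-making cells, were present in every epithelial group, but their summed level was 270000 CPM ± 39700 (SD, n = 3) in distal, 10900 ± 1370 in niche and 45700 ± 13300 in the niche libraries labelled shSox9. All 8 fibroblast markers were present in the same sorts, at a summed 4870 to 5800 CPM in distal, 12800 to 14600 in niche and 11300 to 17600 in the shSox9-labelled libraries, against 6.49 to 31.5 CPM in 4T1 cells. Of the 7 mammary markers, which 4T1 cells carried at a summed 3230 to 4220 CPM, Elf5, Krt5 and Trp63 stayed below 0.5 CPM in every 4T1 library. In these bulk samples, fewer cells of a type and less RNA per cell cannot be told apart.

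The genes with the highest mean TPM were Hoxa10, Hoxa5 and Hoxa7 in 4T1 cells and, averaged over all 9 epithelial libraries, Hoxa5, Hoxa7 and Hoxb5. The order of the means differed between epithelial groups: distal means were 9.23 TPM for Hoxb5, 7.97 for Hoxa7 and 7.33 for Hoxa5, whereas niche means were 17.1 for Hoxa5, 16.0 for Hoxb2 and 15.2 for Hoxa7. In each group the ranges of the genes named overlapped, so their order is within the spread of the libraries. The homeoboxes of Hoxa10 and Hoxa5, the 180 bases that encode the homeodomain, are shown from the GENCODE transcripts on GRCm38, because Hoxa10 had the highest mean in 4T1 cells and Hoxa5 the highest over all epithelial libraries, and reads must be able to tell relatives apart. Each lies in a single coding exon. Below Hoxa10, its relative Hoxc10 is printed with the bases that differ in capitals.
Hoxa10 (chr6:52232554-52232733, minus strand): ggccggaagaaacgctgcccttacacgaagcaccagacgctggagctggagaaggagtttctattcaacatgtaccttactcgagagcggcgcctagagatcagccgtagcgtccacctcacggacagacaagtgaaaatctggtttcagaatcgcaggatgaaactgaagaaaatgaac
Hoxc10 (chr15:102970848-102971027, plus strand), against Hoxa10: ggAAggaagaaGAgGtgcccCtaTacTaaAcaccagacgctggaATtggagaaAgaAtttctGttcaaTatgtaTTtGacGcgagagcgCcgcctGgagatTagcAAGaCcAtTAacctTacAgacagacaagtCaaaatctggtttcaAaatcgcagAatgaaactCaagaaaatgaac
Hoxa5 (chr6:52202632-52202811, minus strand): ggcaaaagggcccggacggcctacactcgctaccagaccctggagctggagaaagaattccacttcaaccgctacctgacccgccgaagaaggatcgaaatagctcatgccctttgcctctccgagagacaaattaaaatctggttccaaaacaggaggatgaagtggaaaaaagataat
Even in this stretch, Hoxa10 and Hoxc10 differed at 35 bases, Hoxa5 and Hoxb5 at 29, and Hoxa7 and Hoxb7 at 27. Among the 42 pairs of paralogs the number of different bases ran from 11 to 59, with a median of 35, and the longest identical run was 47 bases. That run is shorter than the 75-base reads named in the labels, and no 75-base window of any member occurred in a gene of another Hox cluster. Between Hox genes, sharing was limited to Hoxc5 with Hoxc10 (94 windows) and Hoxd3 with Hoxd4 (314 windows). Of the windows of Hoxb3 and Hoxb2, 50.5% and 25.2% also occurred in the antisense gene Hoxb3os. No label says whether reads were assigned by strand, so values of Hoxb2, Hoxb3, Hoxa3 (22.5% of windows shared) and Hoxa7 (17.9%) may include antisense reads. For Hoxa5, Hoxa6, Hoxa10, Hoxb4, Hoxb6, Hoxb7 and Hoxb8 the shared fraction was 0%.

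The 39 genes fell into 3 classes. A mean of at least 1 CPM in any group was reached by 15 genes, 8 of HoxA and 7 of HoxB (Hoxb2 to Hoxb8). Another 17 genes had at least 1 count somewhere but stayed below that level in every group, and 7 genes, Hoxa11, Hoxb13, Hoxc11, Hoxc13, Hoxd1, Hoxd10 and Hoxd13, had 0 counts in all 15 libraries. No gene of HoxC or HoxD reached 1 CPM in any group mean. With detection set at 1 CPM in every library of a group, 7 genes were detected in each 4T1 group, 9 in distal, 13 in niche and 12 in the shSox9-labelled niche epithelium.

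**Figure D1:**
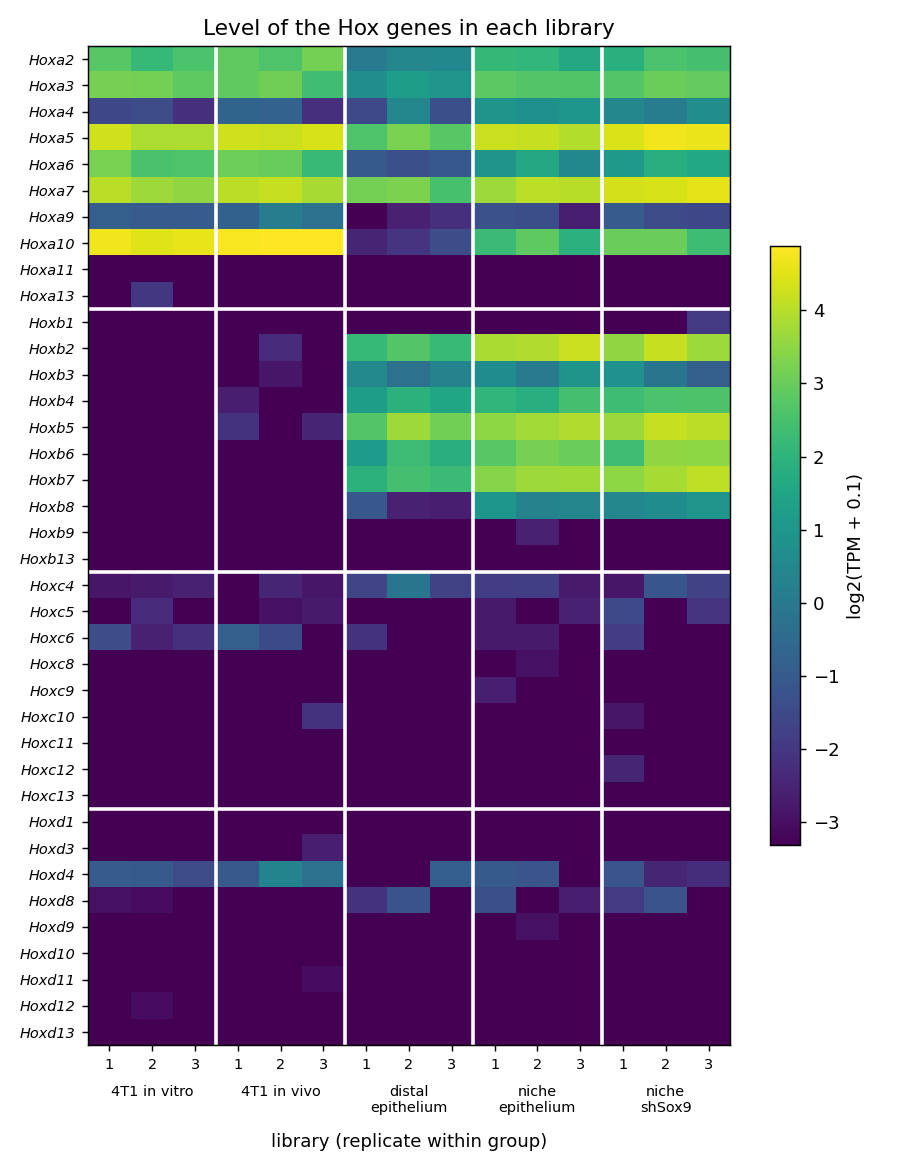
Level of 38 Hox genes (rows, in cluster order) in each of the 15 libraries (columns, 3 per group), as log2(TPM + 0.1). HoxA carries nearly all Hox signal in the 6 libraries of 4T1 cells, whereas the 9 epithelial libraries hold HoxA and HoxB, and HoxC and HoxD are dark in both.

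4T1 cells expressed a HoxA code that reached Hoxa10 with gaps. HoxA genes made up 99.2% ± 0.143 (SD, n = 3) of all Hox TPM in vitro and 98.6% ± 0.365 in vivo. Hoxa10, the most posterior member with appreciable expression, had the highest mean level per length: 25.75, 22.2 and 24.52 TPM in vitro and 28.05, 29.42 and 28.97 TPM in vivo. Hoxa5 followed with 19.42, 14.45 and 14.4 TPM in vitro and 19.61, 18.63 and 20.72 TPM in vivo, and Hoxa7 with 16.42, 12.78 and 11.29 TPM and 16.19, 17.68 and 14.0 TPM. The ranges of Hoxa5 and Hoxa7 overlapped in vitro, where their order is within the spread of the libraries, and did not overlap in vivo. Hoxa3, Hoxa6 and Hoxa2 were lower, with in vitro means of 8.3, 7.03 and 5.63 TPM. The neighbours in between were nearly silent: Hoxa4 had 3 to 8 counts per library in vitro and Hoxa9 had 12 to 21. Hoxa11, beyond Hoxa10, had 0.

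No HoxB transcript was counted in the cultured carcinoma line: all 10 HoxB genes had 0 counts in each of the 3 in vitro libraries. In vivo, Hoxb2 to Hoxb8 together had 5, 3 and 2 counts, which is 0.448%, 0.266% and 0.187% of their level in niche epithelium. These counts came from Hoxb2, Hoxb3, Hoxb4 and Hoxb5, and Hoxb6, Hoxb7 and Hoxb8 stayed at 0. The surfactant gene Sftpc, a defining transcript of alveolar type 2 cells, stood at 43.3 to 81.5 CPM in the same in vivo libraries and at 1.09 to 2.88 CPM in vitro. The part of lung RNA in those few HoxB counts was not tested.

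Lung epithelial libraries held HoxA and HoxB transcripts side by side. The same sorts also held fibroblast markers, at a summed 4870 to 5800 CPM in distal epithelium. The part of fibroblast RNA in these Hox values was not tested. In distal epithelium HoxA made up 42.6% ± 3.5 and HoxB 55.9% ± 3.29 of all Hox TPM (SD, n = 3). HoxB took 51.5% ± 4.59 in niche and 45.9% ± 3.1 in the shSox9-labelled niche libraries. The highest levels in distal epithelium were those of Hoxb5 (6.35, 12.71 and 8.63 TPM), Hoxa7 (8.89, 9.53 and 5.49 TPM) and Hoxa5 (6.01, 9.34 and 6.64 TPM), and the ranges of all 3 overlapped. Hoxb2, Hoxb7, Hoxb6 and Hoxb4 followed with means of 5.1, 4.67, 3.51 and 2.95 TPM. The code stopped early on the posterior side, since Hoxa10 had 2, 3 and 6 counts and Hoxb9 had 0 in the distal libraries. Hoxb8 was uneven in distal epithelium, with 15 counts in replicate 1 and 2 in each of the others.

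**Figure D2:**
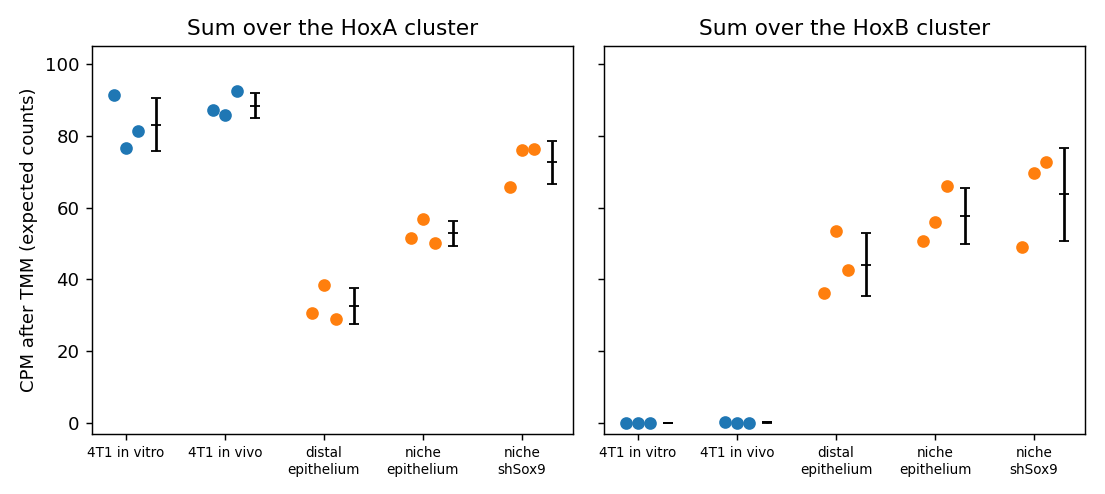
Summed level of all HoxA genes (left) and all HoxB genes (right) in each library, in CPM after TMM scaling. Points are single libraries (blue, 4T1 cells; orange, lung epithelium) and the bars beside them give the mean ± SD of 3 libraries. HoxB is at or near 0 in all 6 libraries of 4T1 cells, and HoxA is lowest in distal epithelium at 29.1 to 38.4 CPM.

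HoxC and HoxD left only scattered counts. Over 3 libraries, both clusters together gave 42.55 expected counts in 4T1 in vitro, 65.16 in vivo, 46.63 in distal, 38.67 in niche and 54.33 in shSox9-labelled niche epithelium. Hoxc4 had 7, 20 and 5 counts in distal libraries against 5, 5 and 1 in niche and 1, 2 and 2 in 4T1 in vitro. Hoxd4 had 7, 10.55 and 6 expected counts in 4T1 in vitro and 6.61, 20.51 and 12.22 in vivo. Of its 75-base windows, 43.9% also occurred in other genes, Hoxd3 among them. Hoxc6 had 5, 2 and 3 counts in 4T1 in vitro and 3, 0 and 0 in distal epithelium. The levels of these genes were near the detection floor, and none passed the filter for the main fits, so their order between groups is uncertain. Hoxc4 libraries did not overlap between 4T1 in vitro (mean 0.0648 CPM) and distal epithelium (0.775 CPM). There DESeq2 and the fit without the filter on low counts called it.

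The comparison of 4T1 cells in vitro with distal lung epithelium sets the code of the carcinoma line against that of the organ it colonizes. Hoxa10 separated the samples most strongly on the HoxA side: 25.1, 22.8 and 26.2 CPM in 4T1 cells against 0.134, 0.221 and 0.46 CPM in distal epithelium, a log2 fold change of 6.63 ± 0.29 (SE, adjusted p = 3.5e-09, edgeR). Hoxa6 stood at 4.5, 2.92 and 3.23 CPM against 0.335, 0.221 and 0.307 CPM (3.71 ± 0.40, adjusted p = 5.2e-06). Neither gene had overlapping libraries between the groups. Of 13 tested Hox genes reported here, 6 were higher in 4T1 cells, where 34.7% of all 16738 genes tested were, and 6 were lower, where 47.8% of all genes were. Hoxa2, Hoxa3, Hoxa5 and Hoxa9 were the other higher genes, by 0.63 to 2.17 on the log2 scale.

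Among the HoxA genes tested in the main fit and reported here, only Hoxa7 was not called. It had 13, 11.8 and 9.39 CPM in 4T1 cells and 12.4, 12.3 and 7.06 CPM in distal epithelium, with overlapping libraries and an adjusted p of 0.38. Hoxa4, too low to be tested in the main fit, had a mean of 0.205 CPM in 4T1 cells and 0.877 CPM in distal epithelium, without overlap. Without the filter on low counts Hoxa4 was called, and DESeq2 did not call it. The 6 genes called lower in the main fit were all of HoxB. Against the floor of 3 counts over the 4T1 group, Hoxb5 was at least 426-fold higher in distal epithelium, Hoxb2 at least 210-fold, Hoxb4 at least 185-fold, Hoxb7 at least 142-fold, Hoxb6 at least 117-fold and Hoxb3 at least 26.7-fold. Hoxb8, at 0 in 4T1 cells, had too few distal counts to be tested in the main fit. DESeq2 and the fit without the filter on low counts called it. Paralogs at the same position stood differently in the line: Hoxa5 was 1.54-fold higher in 4T1 cells while Hoxb5 had 0 counts there. For Hoxa9, leaving out distal replicate 1, its library with 0 counts, lowered the fold change from 4.51 to 2.9 (adjusted p = 0.035). DESeq2 did not call Hoxa9 (adjusted p = 0.063). Its TPM values were below the filter of 0.5 TPM, so limma on TPM did not test it. On deposited TPM the median of all genes moved by 0.54 on the log2 scale, the share of calls that were higher in 4T1 cells went from 42.1% to 54.5%, and Hoxa7 was called. With DESeq2 the median moved by -0.49. Cell kind, culture and sorting cannot be told apart in this comparison. All 8 fibroblast markers were lower in 4T1 cells, where 47.8% of all genes were. The part of fibroblast RNA in the distal Hox values was not tested.

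The comparison of 4T1 cells in vivo with those in vitro asks how the line differs after 7 days in the lung. Hoxa5, for example, had 21.6, 16.8 and 17.4 CPM in vitro and 21.5, 19.8 and 24.5 CPM in vivo, with overlapping libraries. Of the 7 tested Hox genes reported here, 0 were called higher, where 27% of all 14022 genes tested were, and 0 lower, where 24.0% of all genes were (edgeR). Their log2 fold changes lay between -0.14 and 0.36. Hoxa10 came nearest to a separation, at 22.8 to 26.2 CPM in vitro and 27.2 to 30.0 in vivo, without overlap but with a log2 fold change of 0.20 ± 0.11 and an adjusted p of 0.14. At an unadjusted p below 0.05 the count of these 7 genes was 0 as well. DESeq2 called 0 of them, as did limma on TPM, where Hoxa9 did not pass the level filter. RNA of other lung cells was higher in the in vivo libraries: the summed fibroblast markers rose from 6.49 to 11.8 CPM in vitro to 29.3 to 31.5 CPM in vivo, and the leukocyte markers from 0.67 to 1.17 CPM to 16.3 to 82.4 CPM. Their part in the Hox values was not tested.

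The comparison of niche with distal epithelium sets cells named for their place beside the tumour cells against cells farther away. Hoxa10 rose most, from 2, 3 and 6 counts in distal to 107, 157 and 63 counts in niche libraries. In CPM it stood at 4.71, 7.07 and 3.9 in niche against 0.134, 0.221 and 0.46 in distal, with no overlap (log2 fold change 4.33 ± 0.44, adjusted p = 1.1e-05, edgeR). Of 15 Hox genes tested, 8 were higher in niche epithelium, where 28.5% of all 17640 genes tested were. No Hox gene was called lower, where 25.8% of all genes were, and the median log2 fold change of the 15 was 0.76 against 0.02 over all genes tested. No Hox gene with an unadjusted p below 0.05 was lower in niche epithelium, and DESeq2 and limma on TPM also called 0 lower.

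Anterior HoxA genes rose with it. Hoxa3 stood at 7.3, 9.54 and 8.55 CPM in niche and 3.21, 4.79 and 4.45 CPM in distal (log2 fold change 1.10 ± 0.22, adjusted p = 0.0012, edgeR). Hoxa2 stood at 4.53, 4.46 and 3.34 CPM against 1.67, 2.06 and 2.22 CPM (1.12 ± 0.29, adjusted p = 0.007). For both, every niche library was above every distal library. Hoxa5, the regulator of lung development, stood at 20.9, 19.9 and 17.7 CPM against 11.4, 15.8 and 12.1 CPM (0.65 ± 0.16, adjusted p = 0.0057). Hoxa6, near the floor in distal epithelium with 5, 3 and 4 counts, had 20, 33 and 11 counts in niche libraries (1.87 ± 0.51, adjusted p = 0.0088). Hoxa7 overlapped between the groups. Hoxa4 stood at 1.72, 1.58 and 1.86 CPM in niche and 0.402, 1.77 and 0.46 CPM in distal (log2 fold change 1.03 ± 0.53, adjusted p = 0.12). Its distal replicate 2 was apart from the other two, and without it Hoxa4 was called higher.

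Within HoxB, the ends of the expressed stretch rose and its middle did not pass the test. Hoxb2 stood at 14.6, 15.3 and 19.5 CPM in niche and 7.57, 9.51 and 7.67 CPM in distal (1.06 ± 0.20, adjusted p = 0.00096). Hoxb7 stood at 7.79, 9.45 and 9.97 CPM against 4.82, 6.19 and 5.83 CPM (0.76 ± 0.23, adjusted p = 0.017), a call that was lost without distal replicate 1 (adjusted p = 0.064) or niche replicate 3 (0.051). Hoxb8 had 49, 42 and 33 counts against 15, 2 and 2 (2.23 ± 0.62, adjusted p = 0.0097). Its fold change rose from 4.7 to 13.6 when distal replicate 1, which held most of its distal counts, was left out. Hoxb3, Hoxb4, Hoxb5 and Hoxb6 overlapped between the groups, with log2 fold changes from -0.05 to 0.55. Hoxb6 stood at 5.28, 7.43 and 6.57 CPM in niche and 3.55, 5.9 and 4.37 CPM in distal, and Hoxb3 at 1.14, 1.17 and 1.11 CPM against 0.804, 1.03 and 1.3 CPM. Hoxb4 and Hoxb5 had mean levels of 6.89 and 15.6 CPM in niche and 7.31 and 16.9 CPM in distal, and the difference between rising and non-rising members was not itself tested.

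Other values moved with these calls. The fibroblast markers, 8 of 8 tested, rose in 4 cases and fell in 2 between distal and niche, among them Col1a1, a chain of type I collagen, from 1250 to 1500 CPM to 6060 to 7300 CPM. Tcf21, a transcription factor of lung fibroblasts, stood at 50.8, 81.1 and 61.4 CPM in distal and 21.6, 27.2 and 41.6 CPM in niche. All 6 leukocyte and all 6 macrophage markers rose, the summed macrophage level from 153 to 245 CPM to 1660 to 2100 CPM, and all 7 alveolar type 2 markers fell. The part of these other cells in the Hox differences was not tested. TMM factors were 0.776 to 0.843 in distal and 0.996 to 1.14 in all other libraries. On deposited TPM, which has no such correction, the median of all genes moved by 0.58 on the log2 scale and the share of calls that were higher in the niche from 52.5% to 79.8%, and 11 Hox genes were called higher, the same 8 with Hoxa4, Hoxa7 and Hoxb6. Relative to that shift the log2 fold changes of Hoxb4 and Hoxb5, 0.54 and 0.56 on TPM, were near 0.

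**Figure D3:**
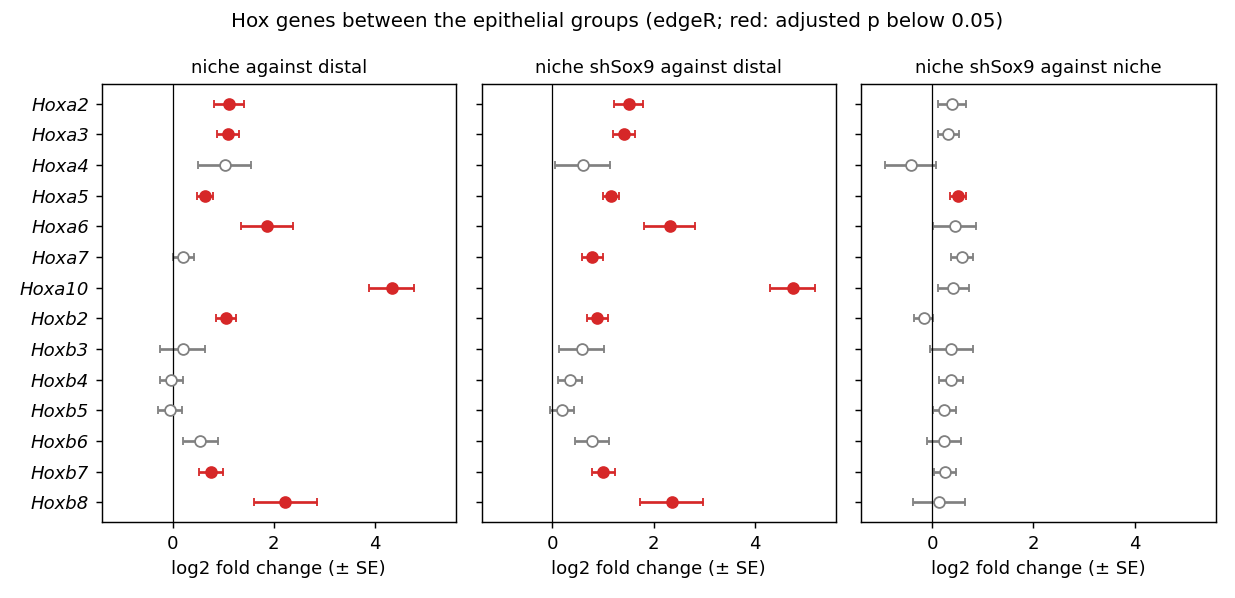
Log2 fold changes ± SE (edgeR) of 14 tested Hox genes between the epithelial groups. Filled red points had an adjusted p below 0.05: 8 genes for niche against distal, 9 for shSox9-labelled niche against distal and Hoxa5 alone between both niche groups. The panels share libraries, so they are not independent of each other.

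Genes that 4T1 cells express and distal epithelium lacks were used to ask whether transcripts of that pattern were also present in the niche sorts. A panel of 7 genes other than Hox genes (Atg9b, Bsn, Exosc6, Htr5b, Lypd3, Parpbp and Tbx15) had at least 10 CPM in every 4T1 library and at most 0.5 CPM in every distal library. As a percentage of its mean level in 4T1 cells in vivo, on plain CPM and after subtraction of the distal mean, the panel stood at 26.5%, 23.1% and 12.1% in niche libraries. It stood at 17.5%, 13.7% and 10.3% in the shSox9-labelled niche libraries. Distal values, between -0.076% and 0.0495%, are near 0 by construction and are no control. The panel was chosen for low distal levels, and the distal mean was subtracted. In 4T1 in vitro it stood at 160% to 170%, so every share depends on the in vivo level taken as the reference. With a limit of 0.2 CPM in distal libraries, which left 2 panel genes, the mean in the shSox9-labelled libraries was 2.93% instead of 13.8%. In niche libraries it was 16.0% instead of 20.6%. Under the other panel settings the mean was between 11.1% and 15.7% in shSox9-labelled and between 18.9% and 20.6% in niche libraries. Hoxa10 calculated in the same way stood at 15%, 22.3% and 11.7% in niche and 26.3%, 24.5% and 16.1% in shSox9-labelled libraries. In niche epithelium the Hoxa10 value was below the panel share in all 3 libraries, and in the shSox9-labelled libraries above it in all 3.

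For the other HoxA genes that 4T1 cells express, the rise over distal was set beside the amount that the panel share of the in vivo level would bring. In niche epithelium the mean rise of Hoxa10 was 5.17 CPM ± 1.72 (SD, n = 3) against 6.51 ± 2.38 at the panel share, and that of Hoxa6 was 0.815 ± 0.435 against 0.771 ± 0.282. The rise of Hoxa2 was 2.61 ± 0.764 against 1.81 ± 0.661. The rise of Hoxa7 was 3.4 ± 1.21 against 3.04 ± 1.11. Larger rises than the panel share were measured for Hoxa3, 5.3 ± 1.08 against 2.26 ± 0.825, and Hoxa5, 9.43 ± 2.1 against 5.05 ± 1.85. In the shSox9-labelled libraries the mean rise of each of these genes was above the amount at the panel share. There Hoxa10 rose by 7.05 ± 1.71 against 4.38 ± 1.14 and Hoxa6 by 1.2 ± 0.347 against 0.519 ± 0.135. Hoxa2 rose by 3.92 ± 1.29 against 1.22 ± 0.316 and Hoxa7 by 9.48 ± 0.745 against 2.05 ± 0.533. Hoxa3 rose by 7.48 ± 1.31 against 1.52 ± 0.395 and Hoxa5 by 18.1 ± 2.86 against 3.39 ± 0.884. All rises here are on plain CPM, which puts distal levels lower than TMM scaling does. For Hoxa5 the distal mean was 10.7 plain CPM and 13.1 after TMM scaling, against niche means of 20.1 and 19.5. Rises after TMM scaling were not set beside the panel share. For HoxB in niche epithelium the amount at the panel share was at most 0.0185 CPM per gene, since 4T1 cells hardly express the cluster. The rises of Hoxb2, Hoxb7 and Hoxb8 there were 10.2 ± 2.37, 4.75 ± 0.987 and 1.75 ± 0.164 CPM.

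**Figure D4:**
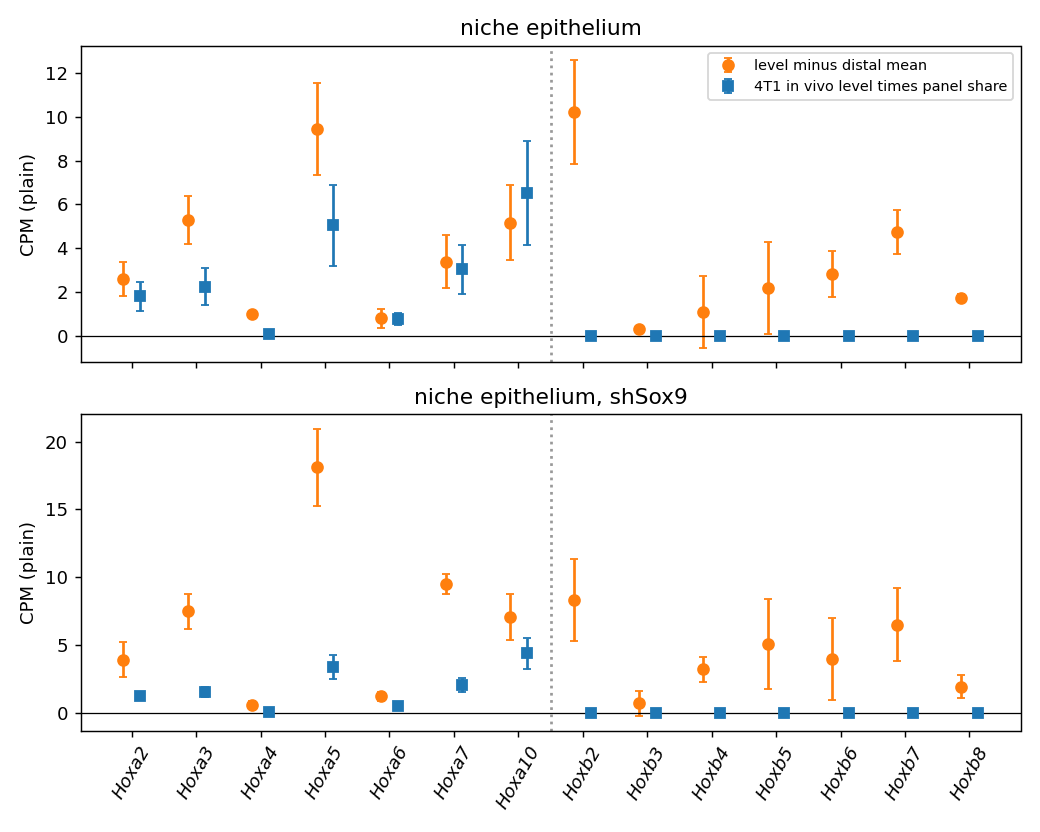
Rise of 14 Hox genes over the distal mean in niche epithelium (top) and shSox9-labelled niche epithelium (bottom), in plain CPM (orange circles), beside the 4T1 in vivo level multiplied by each library's panel share (blue squares). Symbols are means and bars SD of 3 libraries, and the dotted line parts HoxA from HoxB. Plain CPM carries no TMM scaling. Rises over distal are smaller after TMM scaling, and in niche epithelium the small ones of Hoxb4 and Hoxb5 are absent.

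A further fit, chosen after seeing the data, subtracted from each niche library its panel share of the in vivo 4T1 level before the test. For Hoxa10 in niche epithelium nothing is tested by it: the level was below the amount at the panel share in 2 libraries and 3.93 plain CPM against 3.83 in the other, so the subtraction itself leaves about 0 counts. Hoxa2 (adjusted p = 0.085) and Hoxa6 (0.67) lost their calls for niche against distal. Hoxa3, Hoxa5, Hoxb2, Hoxb7 and Hoxb8 stayed called higher and Hoxb6 was added, giving 6 genes. The counts that remain are scaled anew, so HoxB genes with almost nothing to subtract moved up too: Hoxb4 went from a log2 fold change of -0.02 to 0.44 and Hoxb5 from -0.05 to 0.42. In the shSox9-labelled libraries against distal, Hoxa6 lost its call (0.12) and Hoxb4 and Hoxb6 were added, giving 10 genes in place of 9. The panel holds few genes, and the subtraction also leaves few counts for Hoxa6. Whether 4T1 RNA was the source of these values was not tested.

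Between the niche libraries labelled shSox9 and niche epithelium, the count of Hox calls was near the share of calls over all genes. Hoxa5 was the only one of 15 tested genes that passed, at 23.6, 29.1 and 30.7 CPM against 20.9, 19.9 and 17.7 CPM, without overlap (log2 fold change 0.51 ± 0.16, adjusted p = 0.04, edgeR). The share of all genes called higher was 9.68%. No Hox gene was called lower, where 10.8% of all genes were, and DESeq2 and limma on TPM also called 0 lower. Both Hox genes with an unadjusted p below 0.05, Hoxa5 and Hoxa7, were higher in the shSox9-labelled libraries. Hoxa7 stood at 16.9, 16.6 and 18.8 CPM against 10.3, 11.5 and 13.2 CPM, also without overlap, with a log2 fold change of 0.59 ± 0.21 and an adjusted p of 0.067. Hoxa10 overlapped, at 7.92, 7.68 and 5.35 CPM against 4.71, 7.07 and 3.9 CPM (adjusted p = 0.38).

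No HoxB gene passed between the niche groups, and each of the 7 overlapped. Hoxb2 stood at 11.6, 17.7 and 14.4 CPM in shSox9-labelled and 14.6, 15.3 and 19.5 CPM in niche libraries (log2 fold change -0.17 ± 0.19), and Hoxb5 at 14.0, 20.5 and 20.4 CPM against 13.2, 15.4 and 18.0 CPM (0.24 ± 0.23). The Hoxa5 call depended on single libraries: it was lost without niche replicate 1 (adjusted p = 0.079), 2 (0.099) or 3 (0.12) and without shSox9-labelled replicate 2 (0.12) or 3 (0.13), and on TPM with limma (0.096). Hoxa7 passed with DESeq2 (0.033), without the filter on low counts (0.047) and in a fit of the 6 libraries alone (0.026). Values of other cells moved between these groups as well: all 6 leukocyte markers fell, from a summed 1140 to 1320 CPM to 121 to 470 CPM, all 7 alveolar type 2 markers rose, and 3 of 8 fibroblast markers rose. Their part in the Hoxa5 value was not tested.

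Against distal epithelium, the shSox9-labelled niche libraries were higher in 9 of 15 Hox genes, where 21.7% of all genes were, and lower in 0, where 22.0% of all genes were. No Hox gene with an unadjusted p below 0.05 was lower, and DESeq2 and limma on TPM also called 0 lower. The comparison shares its distal libraries with that of niche epithelium, so their likeness is no separate result. The same 8 genes passed, and Hoxa7 was added at 16.9, 16.6 and 18.8 CPM against 12.4, 12.3 and 7.06 CPM (log2 fold change 0.79 ± 0.21, adjusted p = 0.0099). Hoxa10 had 162, 161 and 98 counts against 2, 3 and 6 (4.75 ± 0.44, adjusted p = 9.3e-06). Hoxa5 stood 2.23-fold higher (adjusted p = 0.00018), Hoxa3 2.67-fold and Hoxb7 2.02-fold. The fold change of Hoxb8 rose from 5.13 to 14.8 without distal replicate 1. On TPM 12 Hox genes were called higher, at a shift of the median of all genes by 0.56 and with 82.5% of all calls higher in place of 49.7%.

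Hox proteins bind DNA with partners of the TALE class, the Pbx, Meis and Pknox proteins. Of the 9 genes listed, 8 were tested against distal epithelium, and 1 was higher and 7 were lower in 4T1 cells in vitro, with a median log2 fold change of -1.61 against -0.33 over all genes. Of all genes, 34.7% were higher and 47.8% lower. Pknox2 had 0 CPM in 4T1 in vitro and 37.9 ± 6.74 CPM in distal epithelium, and Meis1 had 10.8 ± 1.51 against 57.6 ± 10.4 CPM (SD, n = 3). Between niche and distal epithelium 2 rose and 3 fell, where 28.5% of all genes rose and 25.8% fell: Meis3 rose from 13.4 ± 0.379 to 21.5 ± 1.17 CPM and Pbx3 fell from 12.8 ± 1.91 to 7.04 ± 0.714 CPM. In the shSox9-labelled niche libraries 2 were higher than in niche epithelium and 0 lower, against 9.68% and 10.8% of all genes. Meis2 was among them (22.3 ± 3.15 against 13.9 ± 1.33 CPM, adjusted p = 0.013). In 4T1 cells 5 of 7 tested partners rose and 1 fell in vivo, against 27% and 24.0% of all genes. Meis1 had 25.3 ± 4.13 against 10.8 ± 1.51 CPM (adjusted p = 0.00018).

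Polycomb complexes keep Hox clusters silent and Trithorax proteins keep them active. Of 23 Polycomb genes, 5 rose and 6 fell in niche against distal epithelium, against 28.5% and 25.8% of all genes, with a median log2 fold change of 0.05 beside 0.02 over all genes. Cbx7, which reads the repressive histone mark, fell from 19.9 ± 4.22 to 4.89 ± 0.485 CPM, and Ezh2, the enzyme that writes it, rose from 14.4 ± 2.26 to 21.4 ± 3.64 CPM (adjusted p = 0.0063). In 4T1 in vitro against distal, 11 were higher and 5 lower, against 34.7% and 47.8% of all genes. Ezh2 had 44.6 ± 4.17 CPM in 4T1 cells, whereas Ezh1, its relative, had 24.8 ± 2.5 against 74.9 ± 7.7 CPM in distal epithelium. Of the 14 genes of Trithorax and histone demethylase function, 5 rose and 4 fell in the niche, again beside 28.5% and 25.8% of all genes. Among those that fell, Ash1l went from 138 ± 3.92 to 87.2 ± 2.25 CPM and Kmt2d from 122 ± 8.11 to 77.5 ± 2.29 CPM. Dot1l, a histone methyltransferase tied to active Hox genes, rose from 30.0 ± 0.485 CPM in distal to 47.2 ± 3.65 in niche and 84.6 ± 12.1 in the shSox9-labelled libraries. Between both niche groups the Dot1l difference had an adjusted p of 0.00064 (edgeR).

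Retinoic acid, made from vitamin A, switches on anterior Hox genes. Of 21 genes of this pathway and the Cdx family, 14 were tested in the epithelium, and 6 rose and 4 fell in niche against distal, beside 28.5% and 25.8% of all genes. Aldh1a2, a retinaldehyde dehydrogenase, rose from 8.5 ± 1.11 to 15.7 ± 2.15 CPM (adjusted p = 0.0013) and was lower again in the shSox9-labelled libraries at 8.17 ± 1.49 CPM (adjusted p = 0.005). Aldh1a1, another enzyme of that step, fell from 155 ± 43.3 to 64.3 ± 6.12 CPM. Stra6, the receptor that takes up vitamin A, stood at 1.11 ± 0.639 CPM in distal and 16.6 ± 6.72 in niche epithelium, and it also rose in 4T1 cells from 0.0779 ± 0.0699 in vitro to 13.6 ± 0.658 CPM in vivo (adjusted p = 9.2e-07). Against distal epithelium, 11 of 14 tested genes were lower and 3 higher in 4T1 in vitro, beside 47.8% and 34.7% of all genes.

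Among noncoding genes within the clusters, those named below 5 CPM were chosen after their values were seen. Hoxb3os and Hoxb5os, antisense to HoxB genes, had 0 counts in 4T1 in vitro, and over all 3 in vivo libraries they had 0 and 1 counts. Their distal levels were 3.85 ± 0.714 and 0.964 ± 0.186 CPM. Hotairm1, a noncoding gene of HoxA, was present in every group and rose from 4.64 ± 0.474 CPM in niche to 8.89 ± 1.15 in the shSox9-labelled niche libraries (log2 fold change 0.94 ± 0.21, adjusted p = 0.009). Hoxaas2, antisense within HoxA, rose from 5.5 ± 1.37 to 11.7 ± 2.45 CPM (adjusted p = 0.023). Hoxaas3 stood at 1.1 ± 0.16 CPM in 4T1 in vitro, 0.239 ± 0.0751 in distal, 1.56 ± 0.186 in niche and 2.28 ± 0.21 in the shSox9-labelled libraries. Of the 12 tested genes of this list, which also holds the neighbours of the clusters, 2 rose and 2 fell in niche against distal epithelium, beside 28.5% and 25.8% of all genes.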

How the data were processed

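RNA was sequenced with 75-base reads from KAPA Hyper Prep libraries, per the labels' protocols. The authors deposited, per library, RSEM expected counts per gene with TPM and FPKM (RSEM, DESeq2 and the build GRCm38 are named per the submitters' processing notes). Tool versions and strand handling: not given in the sources used here. FPKM values, also deposited, entered no test. Expected counts were rounded and tested with edgeR 4.0.16 (quasi-likelihood, TMM, filterByExpr, Benjamini-Hochberg over all genes tested, adjusted p below 0.05) in R 4.3.3. The 6 libraries of 4T1 cells were fitted together, the 9 epithelial libraries together, and 4T1 in vitro with distal epithelium in a fit of their own. Alternatives were DESeq2 1.42.0, RLE size factors, no filter, limma 3.58.1 on log2(TPM + 0.1), a replicate block, the 6 libraries of a comparison alone and leaving out each library, with a subtraction of the 4T1 panel share and a wider panel chosen after seeing the data. Genes at 0 in a group get a bound set by 3 counts summed over that group's libraries, which covers counting error only.

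The members and gene lists were chosen with earlier results of these data known. Members with a mean of at least 1 CPM in any group are described by library. From each cofactor or regulator list, up to 5 called genes per comparison were eligible to be named if the replicates did not overlap and the higher mean reached 5 CPM. Whether replicate numbers pair the samples was not established. Between both niche groups, deviations of same-numbered libraries correlated at 0.17, 0.12 and 0.14 over genes. Between shSox9-labelled niche and distal libraries, differently numbered ones reached 0.19. No pair of libraries was a duplicate. The fits were tested on simulated data. Homeoboxes come from GENCODE transcripts on GRCm38, and protein sequences were not used here. A member, a cofactor and some homeoboxes are not reported here, and counts of calls named as of genes reported here leave that member out.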

Additional observations from a re-analysis of the deposited data

How the results depend on the processing

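Of 764 values of single Hox genes under the alternatives, 713 kept their direction and side of the threshold, 19 passed only there, 12 no longer passed and 20 turned direction. For niche against distal, Hoxa10 was -2.26 after subtraction of the 4T1 panel share, an alternative chosen after seeing the data that leaves about 0 Hoxa10 counts in niche libraries by construction and so tests nothing for this gene. Hoxb4 was 0.44 and Hoxb5 0.42 after subtraction, 0.54 and 0.56 with limma on TPM, 0.13 and 0.19 without distal replicate 2, and 0.03 and 0.06 without niche replicate 1. Hoxb4 was also 0.00 without the filter and 0.13 without niche replicate 2, and Hoxa7 was -0.02 without distal replicate 3. With 1 library left out, Hoxb4 ran from -0.23 to 0.13, Hoxb5 from -0.23 to 0.19 and Hoxa7 from -0.02 to 0.33. For shSox9-labelled against niche libraries, the genes called higher (1) were 2 after subtraction (the added Hoxa10 is void for the same reason), and 2 with DESeq2, without the filter or with the 6 libraries alone, 0 with limma on TPM, and 0 to 1 when a library was left out. All genes called there were 3616, and with 1 library left out 2238 (without niche replicate 1) to 4224. Hoxb3 was -0.60 with limma on TPM and -0.17 without shSox9-labelled replicate 1, and Hoxb8 was -0.07 after subtraction and -0.25 without shSox9-labelled replicate 3, with left-out ranges of -0.17 to 0.64 and -0.25 to 0.36. Against distal, shSox9-labelled Hoxb3 was -0.25 with limma on TPM. Hoxa6 between 4T1 groups was 0.12 without in vitro replicate 1 or in vivo replicate 3 (range -0.24 to 0.12), and Hoxa7 in 4T1 in vitro against distal was -0.02 without distal replicate 3 (range -0.02 to 0.37). The panel share of shSox9-labelled libraries was 2.93% with the 0.2 CPM limit, which left 2 panel genes. The cause of these changes was not tested. With the replicate block, Hoxa5 between the niche groups had an adjusted p of 0.044 and 1 gene was called. For shSox9-labelled against distal the block called 10 genes, adding Hoxb6 (0.04), and it left the other counts as they were. The depth limits the 17 members below 1 CPM, whose highest library was 1.47 CPM.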
